A study of Mus musculus with 12 samples.

Results

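Hepatic FGF21 and its receptor system were followed through 7 genes among the 47729 counted in mouse liver RNA-seq. The genes were chosen by name and function. They comprise the ligands Fgf21 and Fgf1, the 4 tyrosine kinase receptors Fgfr1, Fgfr2, Fgfr3 and Fgfr4, and the co-receptor β-klotho (Klb). All 7 had enough counts to be tested. Livers came from 12 male C57BL/6 mice in 3 groups of 4, and the comparisons asked which genes differ between healthy and diseased liver and which differ after BET inhibition. Healthy mice (Naive_vehicle) received no streptozotocin and stayed on normal chow. Their label names a vehicle, and the paper does not describe its dosing in healthy mice separately. Livers of all groups were taken at the end of the study, at week 9. STAM mice received streptozotocin on day 2 of life, which impairs insulin secretion, and a high-fat diet from week 4, a model of non-alcoholic steatohepatitis (NASH). STAM-vehicle mice (STAM_vehicle) and STAM-I-BET151 mice (STAM_treated, 10 mg/kg orally once a day) were dosed from week 6 to week 9. I-BET151 is a small molecule that occupies the acetyl-lysine pockets of the BET bromodomain proteins. Streptozotocin and the diet were always given together, so their separate contributions cannot be told apart. The vehicle of the control mice and the suspension that carried I-BET151 also differed in composition.

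FGF21 is an endocrine hormone made largely by hepatocytes. It leaves the liver and acts on fat tissue and brain, where it binds β-klotho first and then FGFR1. In hepatocytes β-klotho pairs chiefly with FGFR4, the receptor through which the ileal hormone FGF15 restrains bile acid synthesis. FGF1 is a paracrine growth factor that binds all 4 receptors through heparan sulfate without a klotho. Transcription of Fgf21 is raised by PPARα during fasting, by ChREBP after sugar and by ATF4 in the integrated stress response.

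One library stood apart, and results that rest on it are given with and without it. STAM-I-BET151 mouse 3 had a TMM normalization factor of 1.61, against 0.770 to 1.11 in the other 11 libraries, a share of 7.95% of counts in its 10 most abundant genes against 13.5 to 18.0%, 2.71% mitochondrial counts against 4.51 to 7.30%, and 24304 genes with a count against 21189 to 23637. In the study 1 STAM-I-BET151 mouse was excluded for low gene counts, but which one is not stated, so all 4 were kept. Total counts were between 34711229, in STAM-I-BET151 mouse 3, and 53365596 per mouse. The file names place the libraries on 6 sequencing lanes, and lane 7 held only STAM-vehicle mouse 3 and STAM-I-BET151 mouse 3. Lane 8 held only healthy mice 2 and 3 and lane 4 only STAM-vehicle mouse 2, while lane 2 alone held all 3 groups. Lane was thus partly tied to group. The 6 hepatocyte markers summed to between 105763 and 124359 CPM in healthy livers, 54735 and 73745 CPM in STAM-vehicle livers and 21426 and 86307 CPM in STAM-I-BET151 livers, with the lowest sum in mouse 3. CPM denotes counts scaled to a common library size after TMM normalization. In whole tissue, fewer cells of a type and less RNA of a gene per cell cannot be told apart.

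The promoter of Fgf21 is shown because known regulators of the gene act there. RefSeq start sites on GRCm38.p6 were available for 5 of the 7 genes (Fgf21, Fgfr2, Fgfr3, Fgfr4 and Klb). The 250 bases upstream of the start are printed below 5′ to 3′ on the strand of the gene, for Fgf21 (chr7:45615491-45615740, minus strand) and for the hepatocyte receptor pair Fgfr4 (chr13:55152568-55152817, plus strand) and Klb (chr5:65348161-65348410, plus strand). Capitals mark matches, on either strand, to the C/EBP-ATF element core TGATGNAA, the E-box CACGTG and the TATA box TATAAA. These motifs do not overlap one another in the printed sequences. The start is that of RefSeq. The Fgfr4 and Klb windows reach past the GENCODE gene starts (55152640 and 65348314), so they hold some bases of those gene models.
Fgf21: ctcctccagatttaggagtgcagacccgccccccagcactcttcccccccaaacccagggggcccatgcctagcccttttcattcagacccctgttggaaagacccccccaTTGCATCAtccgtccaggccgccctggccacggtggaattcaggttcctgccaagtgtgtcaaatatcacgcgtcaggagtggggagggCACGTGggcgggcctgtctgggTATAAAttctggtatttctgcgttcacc
Fgfr4: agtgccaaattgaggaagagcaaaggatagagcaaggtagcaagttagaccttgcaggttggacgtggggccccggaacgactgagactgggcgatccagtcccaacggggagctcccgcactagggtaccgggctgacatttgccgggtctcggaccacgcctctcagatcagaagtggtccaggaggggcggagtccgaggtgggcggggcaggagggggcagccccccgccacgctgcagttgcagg
Klb: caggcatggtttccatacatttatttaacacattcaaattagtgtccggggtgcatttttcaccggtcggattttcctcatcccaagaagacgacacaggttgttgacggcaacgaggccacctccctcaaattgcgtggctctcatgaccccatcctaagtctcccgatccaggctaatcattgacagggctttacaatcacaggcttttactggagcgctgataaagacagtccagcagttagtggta
The Fgf21 sequence holds all 3 motifs. The C/EBP-ATF core, read on the opposite strand as TTGCATCA, begins 139 bases before the start, the E-box 50 bases and the TATA box 28 bases before it. Of 32851 mouse promoter windows of this length, 3.45% held the C/EBP-ATF core, 6.02% the E-box and 12.4% the TATA box. Neither the Fgfr4 nor the Klb window held any of the 3, nor did those of Fgfr2 and Fgfr3. GC boxes (GGGCGG, either strand, in 32.7% of windows) were found 3 times in the Fgf21 window, 2 times in that of Fgfr4 and 3 and 2 times in the 2 windows of Fgfr3, and not in those of Klb and Fgfr2. A match gives letters only and not a bound site.

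Per kilobase of exon, Fgf1 led in healthy liver and Fgfr1 came last. Means over 4 healthy mice were 34.1 ± 3.49 CPM per kilobase (SD, n = 4) for Fgf1, 13.9 ± 1.26 for Fgfr4, 10.5 ± 3.47 for Fgf21, 8.07 ± 1.83 for Klb, 6.16 ± 1.48 for Fgfr3, 2.57 ± 0.281 for Fgfr2 and 1.61 ± 0.332 for Fgfr1. The ranges of the neighbours Fgfr4 and Fgf21, Fgf21 and Klb, and Klb and Fgfr3 overlapped, and those of the other neighbours did not. In STAM-vehicle liver Fgf21 (23.2 ± 17.98 CPM per kilobase) and Fgf1 (22.3 ± 3.08) led with overlapping ranges. Fgfr1 (2.36 ± 0.440) had a mean near that of Fgfr2 (2.48 ± 0.169), their ranges overlapping. The order in STAM-I-BET151 liver was that of STAM-vehicle, and without mouse 3 Fgf1 (20.5) stood above Fgf21 (16.6) and Klb (5.97) above Fgfr3 (5.79), again with overlapping ranges. The Fgfr2 model also takes in transcripts that share exons with the gene Ctbp2 on the same strand. Its length, and with it its level per kilobase, is therefore uncertain.

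Fgf21 (chromosome 7, 45613886 to 45615490, minus strand, GRCm38) is a short gene of 951 exonic bases that shares none with another gene. It measured 11.9, 13.2, 9.13 and 5.69 CPM in healthy mice 1 to 4. STAM-vehicle mice 1 to 4 had 19.8, 9.33, 46.9 and 12.4 CPM. STAM-I-BET151 mice 1 to 4 had 21.4, 18.7, 35.7 and 7.19 CPM. The 2 highest values belonged to mouse 3 of each STAM group, the 2 libraries of lane 7, and the lowest STAM values lay inside the healthy range. The fitted difference of STAM-vehicle from healthy was the largest of the 7 genes, at 1.15 ± 0.51 on the log2 scale (SE), a 2.22-fold higher mean, and did not pass (adjusted p = 0.206, edgeR quasi-likelihood test with Benjamini-Hochberg adjustment over 16823 genes). Without STAM-vehicle mouse 3 the difference was 0.47. STAM-I-BET151 differed from STAM-vehicle by -0.091 ± 0.50 (adjusted p = 0.984). Leaving out STAM-vehicle mouse 3 turned this to 0.58, and leaving out STAM-I-BET151 mouse 3 gave -0.48. Against healthy, STAM-I-BET151 differed by 1.06 ± 0.51 (adjusted p = 0.169). Within lane 2, the healthy mouse had 11.9 CPM, that on vehicle 12.4 CPM and that on I-BET151 7.19 CPM. Lane 6 held 19.8 CPM on vehicle and 21.4 on I-BET151, lane 7 46.9 and 35.7, and lane 5 5.69 CPM in healthy and 18.7 on I-BET151 liver. With lane as a covariate the log2 difference from healthy was 0.58 ± 0.49 in STAM-vehicle and 0.47 ± 0.46 in STAM-I-BET151 (adjusted p = 0.840 and 0.770).

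**Figure D1:**
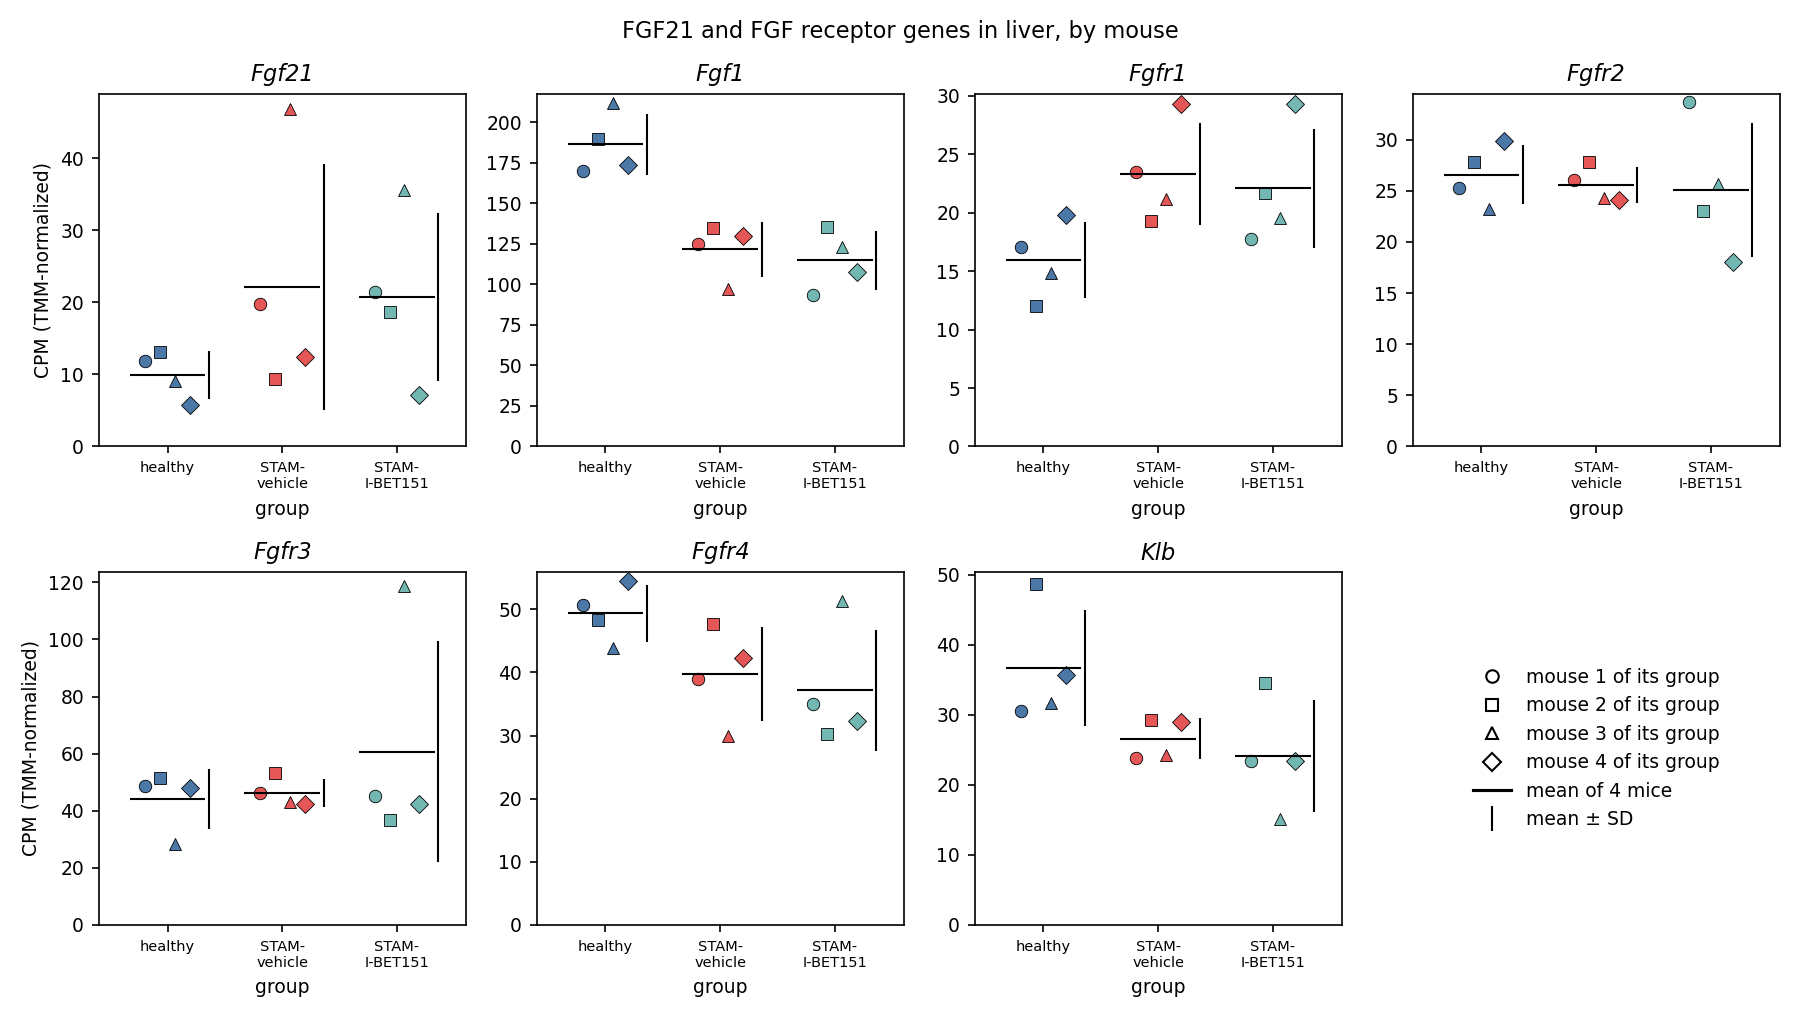
TMM-normalized CPM (y axis, linear from 0) of each of the 7 genes in every mouse, by group on the x axis. Marker shape gives the mouse number in its group, horizontal lines are means of 4 mice and vertical lines are mean ± SD. Every STAM mouse lies below every healthy mouse for Fgf1, Fgf21 spans 9.33 to 46.9 CPM in STAM-vehicle mice, and STAM-I-BET151 mouse 3 stands at 119 CPM for Fgfr3.

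Fgf1 (chromosome 18, 38838673 to 38929472, minus strand) fell in STAM liver and was the 1 gene of the 7 to pass the test there, beside 7.01% of all genes tested in STAM-vehicle and 14.9% in STAM-I-BET151. It measured 170, 190, 212 and 174 CPM in healthy mice 1 to 4. STAM-vehicle mice 1 to 4 had 125, 135, 97.1 and 130 CPM. STAM-I-BET151 mice 1 to 4 had 93.7, 135, 123 and 107 CPM. The healthy values lay above all 8 STAM values, and the STAM groups overlapped. The fall from healthy was by 0.62 ± 0.16 on the log2 scale in STAM-vehicle (0.653-fold, adjusted p = 0.0327) and by 0.70 ± 0.16 in STAM-I-BET151 (0.617-fold, adjusted p = 0.0114). The difference between the STAM groups was -0.083 ± 0.16 (adjusted p = 0.938). Within lane 2, the healthy mouse had 170 CPM, that on vehicle 130 CPM and that on I-BET151 107 CPM, and within lane 5 the healthy mouse had 174 CPM and that on I-BET151 135 CPM. The call in STAM-vehicle was kept in 5 of 12 fits that left out 1 mouse, and that in STAM-I-BET151 in 12 of 12. With lane as a covariate the log2 differences from healthy were -0.39 ± 0.25 and -0.48 ± 0.22 and neither passed (adjusted p = 0.793 and 0.446). Healthy mice 2 and 3 were alone in lane 8, so that fit compared only healthy mice 1 and 4 with STAM mice. The summed hepatocyte markers, given above, were also lower in every STAM liver than in every healthy one, and their part in the fall was not tested.

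Among the 20 other FGF ligand genes, 7 had no count in any library (Fgf3, Fgf4, Fgf5, Fgf6, Fgf10, Fgf15 and Fgf20) and 5 had enough counts to be tested. Fgf23, the bone hormone that lowers serum phosphate, rose in both STAM groups. It had 0 counts in all 4 healthy livers, 9, 12, 91 and 89 counts in STAM-vehicle mice 1 to 4 and 66, 29, 69 and 29 in STAM-I-BET151 mice 1 to 4. Every STAM library was thus above every healthy one. Against a floor of 3 counts in a healthy library, the mean CPM was at least 11.7-fold higher in STAM-vehicle and at least 11.4-fold higher in STAM-I-BET151. Fgf23 passed the count filter only through the STAM libraries, so no p-value is given for it. Levels stayed low, at 1.02 and 0.991 CPM. Fgf9 had 0 to 6 counts in healthy, 10 to 14 in STAM-vehicle and 7 to 31 in STAM-I-BET151 libraries. It too entered the test through its STAM counts, so no p-value is given. Fgf11 passed in STAM-I-BET151 against healthy, by 1.20 ± 0.34 on the log2 scale (adjusted p = 0.0315). When STAM-I-BET151 mouse 3 was left out Fgf11 did not pass there (adjusted p = 0.0566) and passed in STAM-vehicle against healthy instead (adjusted p = 0.00881). Of the 5, 0 passed between the STAM groups, and 0 had an unadjusted p under 0.05, beside 0.339% and 8.6% of all genes.

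None of the 4 receptors passed in the edgeR fit of all 12 mice with TMM scaling, while other fits of the same mice called Fgfr1 or Fgfr4. At an unadjusted p under 0.05 that edgeR fit held 3 of the 7 genes in STAM-vehicle against healthy, beside 22.1% of all genes, and 4 of 7 in STAM-I-BET151 against healthy, beside 32.4%. Fgfr1 (chromosome 8, 25513654 to 25575718, plus strand), the receptor that FGF21 uses in fat, measured 17.1, 12.1, 14.9 and 19.8 CPM in healthy mice 1 to 4. STAM-vehicle mice 1 to 4 had 23.5, 19.3, 21.2 and 29.3 CPM. STAM-I-BET151 mice 1 to 4 had 17.8, 21.7, 19.6 and 29.3 CPM. Only the highest healthy mouse reached into the STAM-vehicle range. The log2 difference from healthy was 0.55 ± 0.19 in STAM-vehicle (adjusted p = 0.104) and 0.47 ± 0.19 in STAM-I-BET151 (adjusted p = 0.110). It passed in STAM-vehicle when only the 2 groups were fitted (adjusted p = 0.0384) and with limma-voom (adjusted p = 0.0414). With library totals alone in place of TMM, which raised the median of all genes, it passed in both comparisons, at 0.81 ± 0.22 and 0.82 ± 0.22 (adjusted p = 0.0406 and 0.0238).

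Fgfr4 (chromosome 13, 55152640 to 55168759, plus strand), the main FGF receptor of hepatocytes, measured 50.7, 48.3, 43.9 and 54.6 CPM in healthy mice 1 to 4. STAM-vehicle mice 1 to 4 had 38.9, 47.7, 29.9 and 42.3 CPM. STAM-I-BET151 mice 1 to 4 had 34.97, 30.3, 51.3 and 32.3 CPM. STAM-I-BET151 mouse 3 lay in the healthy range, and the other 3 lay below it. The log2 difference from healthy was -0.31 ± 0.18 in STAM-vehicle (adjusted p = 0.328) and -0.41 ± 0.18 in STAM-I-BET151 (adjusted p = 0.135). Without mouse 3 the latter was -0.61 ± 0.14 and passed (adjusted p = 0.00818), as it did with limma-voom and all 12 mice, which weights each library (adjusted p = 0.00369). Between the STAM groups the difference was -0.092 ± 0.18, and -0.28 ± 0.13 without that mouse (adjusted p = 0.940 and 0.308).

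Fgfr3 and Fgfr2 did not pass in any comparison. Fgfr3 (chromosome 5, 33721674 to 33737068, plus strand) measured 48.7, 51.4, 28.3 and 47.9 CPM in healthy mice, 46.1, 53.1, 43.2 and 42.3 CPM in STAM-vehicle mice and 45.2, 36.8, 119 and 42.2 CPM in STAM-I-BET151 mice. STAM-I-BET151 mouse 3 exceeded every other liver, healthy mouse 3 was the lowest, and the 3 groups overlapped. The log2 difference of STAM-I-BET151 from STAM-vehicle was 0.40 ± 0.32 with STAM-I-BET151 mouse 3 and -0.15 ± 0.17 without it (adjusted p = 0.802 and 0.700). Fgfr2 (chromosome 7, 130162451 to 133123350, minus strand) stayed between 18.0 and 33.7 CPM in all 12 livers, with log2 differences of -0.054 ± 0.16, -0.026 ± 0.16 and -0.080 ± 0.16 in STAM-vehicle against healthy, between the STAM groups and in STAM-I-BET151 against healthy. Fgfr3 shares 998 exonic bases with G630022F23Rik and Fgfr1 shares 164 with Gm16159, both on the opposite strand, and these genes had at most 33 and 9 counts. Fgfr2 shares 314 bases with Ctbp2 on its own strand, which had 44 to 136 counts. How reads in shared bases were assigned is not given in the sources used here.

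The mix of receptors shifted away from Fgfr4 in STAM liver. Of the 4 receptors summed per kilobase, Fgfr4 made up 56.6, 55.1, 61.6 and 57.1% in healthy mice 1 to 4. It made up 49.2, 52.7, 44.5 and 51.6% in STAM-vehicle mice and 46.5, 47.2, 40.7 and 46.2% in STAM-I-BET151 mice. All 8 STAM values lay below all 4 healthy ones. The mean fell by 8.11 percentage points, from 57.6 ± 2.80% (SD, n = 4) to 49.5 ± 3.63% (p = 0.0286 by a two-sided exact permutation test, for which 70 arrangements allow no lower value). From healthy to STAM-I-BET151 (45.2 ± 2.97%) it fell by 12.4 percentage points (exact permutation p = 0.0286). STAM-I-BET151 against STAM-vehicle gave -4.34 percentage points (exact permutation p = 0.114), and -2.87 without mouse 3 (p = 0.229, exact). Fgfr1 held 6.67 ± 1.19% in healthy, 10.6 ± 2.16% in STAM-vehicle and 10.3 ± 4.14% in STAM-I-BET151 liver, and Fgfr3 held 25.1 ± 4.01%, 28.8 ± 2.57% and 33.7 ± 8.71%. Of the Fgfr3 values, 46.7% was that of STAM-I-BET151 mouse 3. A share within a library does not depend on the scaling of that library. With the longest transcript in place of all exons as the length, the Fgfr4 share was 41.1 to 47.0% in healthy, 31.2 to 38.8% in STAM-vehicle and 29.1 to 33.4% in STAM-I-BET151 livers, again without overlap with healthy.

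**Figure D2:**
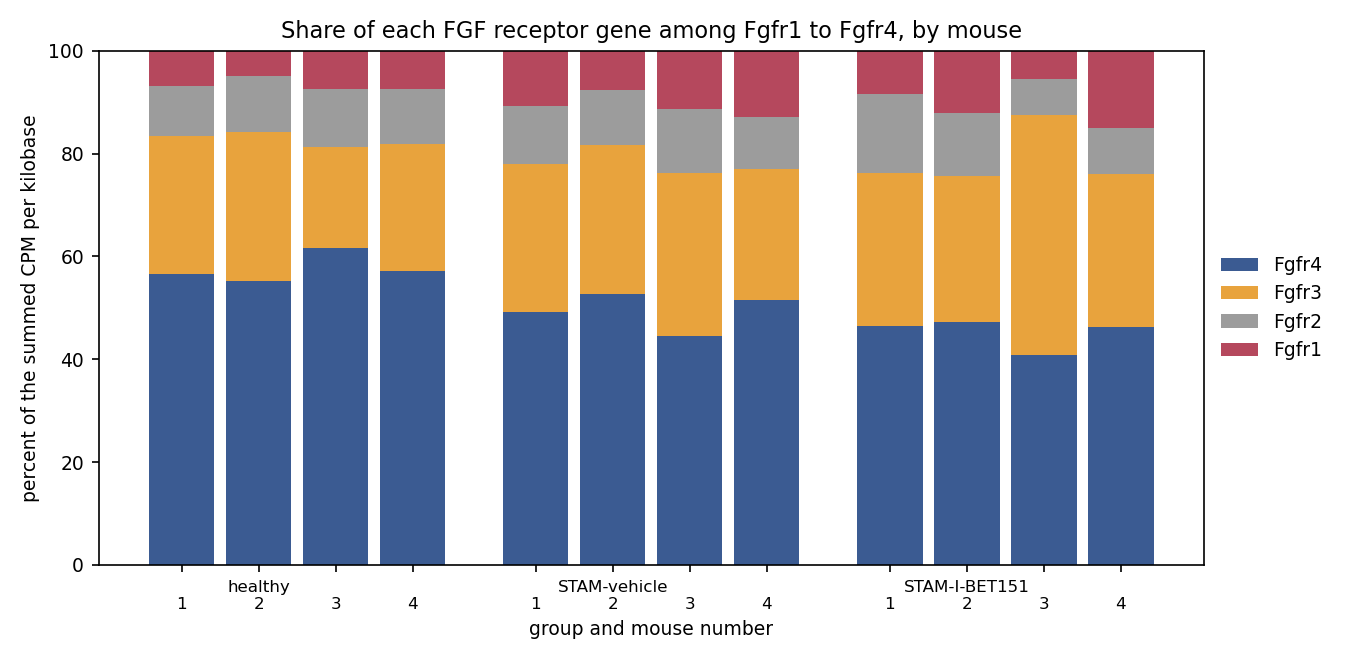
Percent of the summed CPM per kilobase (y axis) taken by each of Fgfr4, Fgfr3, Fgfr2 and Fgfr1 in each mouse (x axis, by group). The Fgfr4 segment reaches 55.1% or more in every healthy mouse and 52.7% or less in every STAM mouse, and STAM-I-BET151 mouse 3 has the largest Fgfr3 segment.

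Klb (chromosome 5, 65348314 to 65384007, plus strand), which encodes the single-pass co-receptor that gives FGF21 and FGF15 their grip on FGFRs, measured 30.6, 48.7, 31.8 and 35.8 CPM in healthy mice 1 to 4. STAM-vehicle mice 1 to 4 had 23.8, 29.3, 24.3 and 29.01 CPM. STAM-I-BET151 mice 1 to 4 had 23.4, 34.6, 15.1 and 23.5 CPM. All STAM-vehicle values lay below all healthy values, and STAM-I-BET151 mouse 2 lay in the healthy range. The log2 difference from healthy was -0.47 ± 0.22 in STAM-vehicle (adjusted p = 0.227) and -0.61 ± 0.22 in STAM-I-BET151 (adjusted p = 0.0744). The former passed when only the 2 groups were fitted (adjusted p = 0.0409), and limma-voom called both (adjusted p = 0.0218 and 0.0135). Between the STAM groups Klb differed by -0.14 ± 0.22, and by 0.036 ± 0.18 without STAM-I-BET151 mouse 3 (adjusted p = 0.918 and 0.944).

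Taking the 7 genes as a group, 1 of 7 passed in STAM-vehicle against healthy (Fgf1, lower), against the 7.01% of all genes given above. In STAM-I-BET151 against healthy the count was again 1 of 7 (Fgf1, lower), beside 14.9%. In STAM-I-BET151 against STAM-vehicle it was 0 of 7, beside 0.339% of all genes at the adjusted p of 0.1 used there. In the edgeR fit 0 of 7 had an unadjusted p under 0.05 in that comparison, beside 8.6% of all genes. DESeq2 and limma-voom also called 0 of 7, the latter beside 6.91% of all genes, although Fgfr4 had an unadjusted p of 0.0261 in limma-voom. Without STAM-I-BET151 mouse 3 the counts were 1 of 7 (Fgf1) beside 22.3%, 2 of 7 (Fgf1 and Fgfr4) beside 20.2%, and 0 of 7 beside 2.3%. Over all 12 mice, limma-voom called 3 of 7 in STAM-vehicle against healthy (Fgf1 and Klb lower, Fgfr1 higher) beside 33.5%, and 3 of 7 in STAM-I-BET151 against healthy (Fgf1, Klb and Fgfr4 lower) beside 28.8%. With library totals alone 1 of 7 passed in each (Fgfr1, higher) beside 7.64% and 20.2%. The fit of only healthy and STAM-vehicle mice called 3 of 7 (Fgf1 and Klb lower, Fgfr1 higher) beside 24.1%. Groups did not overlap for 2 of 7 genes in STAM-vehicle against healthy (Fgf1 and Klb) beside 26.4% of all genes, for 1 of 7 in STAM-I-BET151 against healthy (Fgf1) beside 19.8%, and for 0 of 7 between the STAM groups beside 5.04%. Both comparisons with healthy use the same 4 healthy mice. STAM-I-BET151 mouse 3 is in neither group of STAM-vehicle against healthy, and it enters that comparison through the shared normalization, count filter and estimate of spread.

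**Figure D3:**
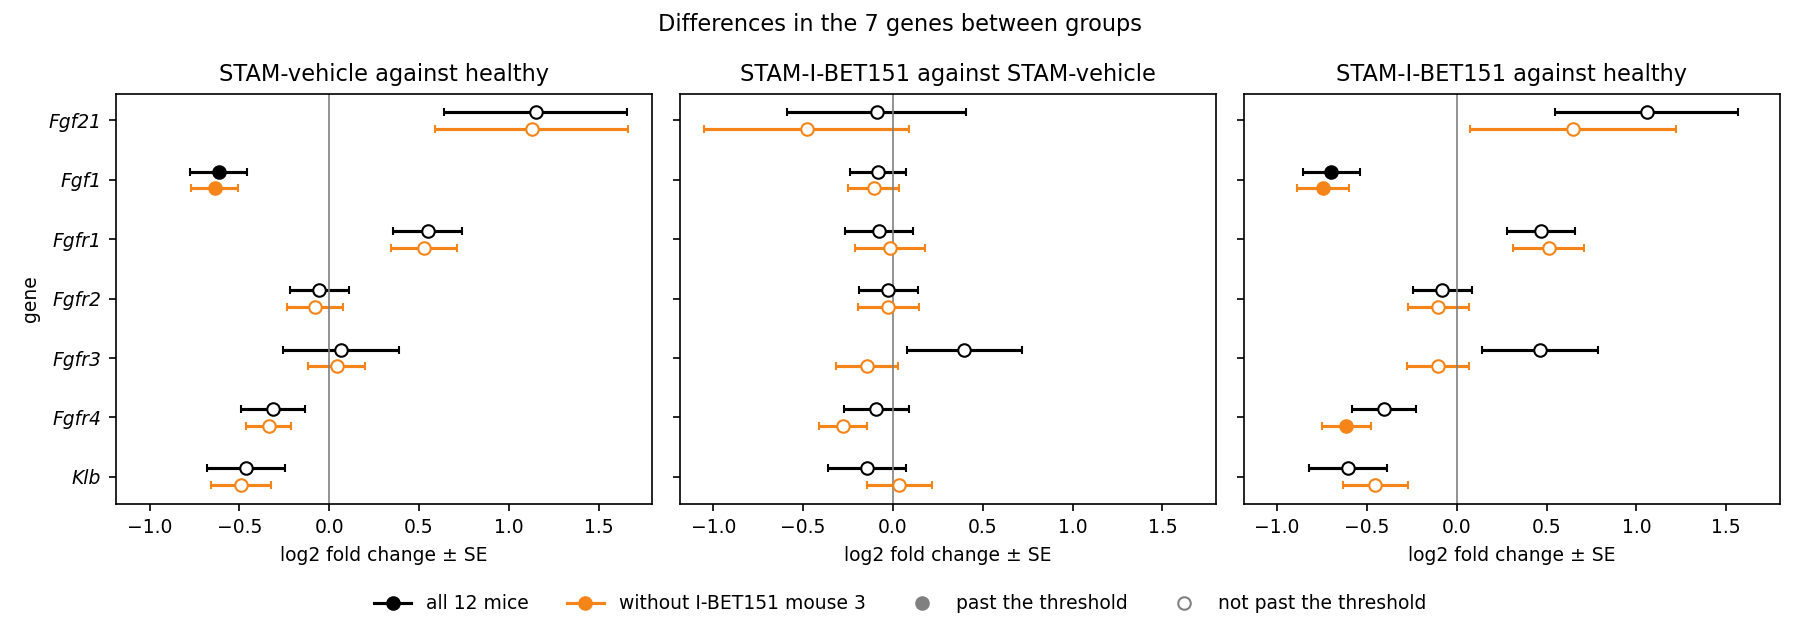
Log2 fold change with its SE (x axis) of each of the 7 genes (y axis) in the 3 comparisons, with all 12 mice and without STAM-I-BET151 mouse 3. Filled points passed the threshold of their comparison. Fgf1 lies at -0.62 and -0.70 against healthy with filled points, Fgfr4 fills only in the right panel without mouse 3, and no point of the middle panel is filled.

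FGF1 signals also need heparan sulfate carriers, whereas FGF21 binds β-klotho, and a decoy receptor can take up ligand. Beside 7.01% of all genes, 1 of 9 such co-receptor, decoy and proteoglycan genes tested was higher and 0 lower in STAM-vehicle against healthy. It was Gpc1, a glypican that carries heparan sulfate chains, at 8.07, 6.07, 9.65 and 6.99 CPM in healthy mice and 39.7, 22.6, 38.2 and 33.5 CPM in STAM-vehicle mice. The groups lay far apart, and the log2 difference was 2.12 ± 0.20 (adjusted p = 0.000105). It was 1.95 ± 0.20 in STAM-I-BET151 against healthy (adjusted p = 0.000142), where the syndecans Sdc1 and Sdc2 were lower, with log2 differences of -0.76 ± 0.21 and -0.87 ± 0.27 (adjusted p = 0.0280 and 0.0455). Fgfrl1, a receptor without a kinase domain, measured 22.2 to 26.6 CPM in healthy, 17.1 to 21.2 CPM in STAM-vehicle and 18.1 to 21.4 CPM in STAM-I-BET151 livers (adjusted p = 0.0731 and 0.127 against healthy). Of the 9, 2 were higher and 3 lower in STAM-vehicle once STAM-I-BET151 mouse 3 was left out, beside 22.3% of all genes. The klotho gene Kl had at most 4 counts in any library. Of the 9, 0 passed between the STAM groups, and 0 had an unadjusted p under 0.05, beside 0.339% and 8.6% of all genes. Fap, the protease that cleaves circulating FGF21, stayed at or under 0.522 CPM in every liver and passed in no comparison.

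Of 18 adaptor, Ras and ERK cascade genes, 0 passed in any comparison with all 12 mice. At an unadjusted p under 0.05, 2, 2 and 3 of the 18 were found in STAM-vehicle against healthy, between the STAM groups and in STAM-I-BET151 against healthy. The shares of all genes at that cut were 22.1%, 8.6% and 32.4%. Frs2, the docking protein phosphorylated by FGFRs, lay between 27.3 and 38.05 CPM in all 12 livers. With STAM-I-BET151 mouse 3 left out, 2 were lower in STAM-vehicle and 1 in STAM-I-BET151 against healthy, beside 22.3% and 20.2% of all genes.

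Among feedback inhibitors of the cascade, 1 of 9 was lower and 0 higher after I-BET151 than in STAM-vehicle liver, beside 0.339% of all genes. Spry4, which blocks Ras activation below receptor tyrosine kinases, measured 12.5, 18.3, 12.1 and 20.9 CPM in STAM-vehicle mice 1 to 4 and 4.50, 5.78, 10.3 and 7.26 CPM in STAM-I-BET151 mice 1 to 4. Every STAM-I-BET151 value lay below every STAM-vehicle value and every healthy value (12.5 to 14.7 CPM). Spry4 fell by 1.20 ± 0.24 on the log2 scale (adjusted p = 0.0742), and by 1.44 ± 0.21 without mouse 3 (adjusted p = 0.00958). Dusp6, the phosphatase that inactivates ERK, measured 26.1, 47.8, 52.2 and 52.8 CPM in STAM-vehicle mice and 17.01, 18.9, 30.2 and 13.1 CPM in STAM-I-BET151 mice. STAM-I-BET151 mouse 3 exceeded the lowest STAM-vehicle mouse, the difference was -1.17 ± 0.28 and did not pass (adjusted p = 0.153), and without mouse 3 it was -1.45 ± 0.27 and did (adjusted p = 0.0337). Both genes were lower in STAM-I-BET151 than in healthy liver (adjusted p = 0.0187 for Spry4 and 0.0181 for Dusp6), where Spred3 and Il17rd were higher. The call of Il17rd was lost without mouse 3 (adjusted p = 0.0492 with it and 0.0745 without). Spry2 lay between 0.552 and 1.77 CPM in the 12 livers. The median log2 difference of the 9 genes between the STAM groups was -0.12, beside 0.02 over all genes tested.

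Some ERK response genes rose in STAM liver. Of 10, 3 were higher and 0 lower in STAM-vehicle against healthy, namely Myc by 1.17 ± 0.20, Fos by 1.70 ± 0.39 and Ier3 by 1.86 ± 0.40 on the log2 scale (adjusted p = 0.00434, 0.0192 and 0.0139), and 5 were higher without STAM-I-BET151 mouse 3. The called shares of all genes in these 2 fits were 7.01% and 22.3%. The median over the 10 was 1.15, beside 0.01 over all genes. Myc and Ier3 were also higher in STAM-I-BET151 than in healthy liver. Between the STAM groups 1 of 10 was lower, the immediate-early gene Ier2, at 21.4, 35.3, 23.1 and 39.7 CPM in STAM-vehicle mice and 13.9, 17.5, 12.3 and 16.7 CPM in STAM-I-BET151 mice. These groups did not overlap, and Ier2 fell by 0.98 ± 0.19 (adjusted p = 0.0699). The called share of all genes there was 0.339%. In that comparison 4 of the 10 had an unadjusted p under 0.05, beside 8.6% of all genes. The median of the 10 was -0.52, beside 0.02 over all genes. These genes answer to many receptors besides FGFRs.

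**Figure D4:**
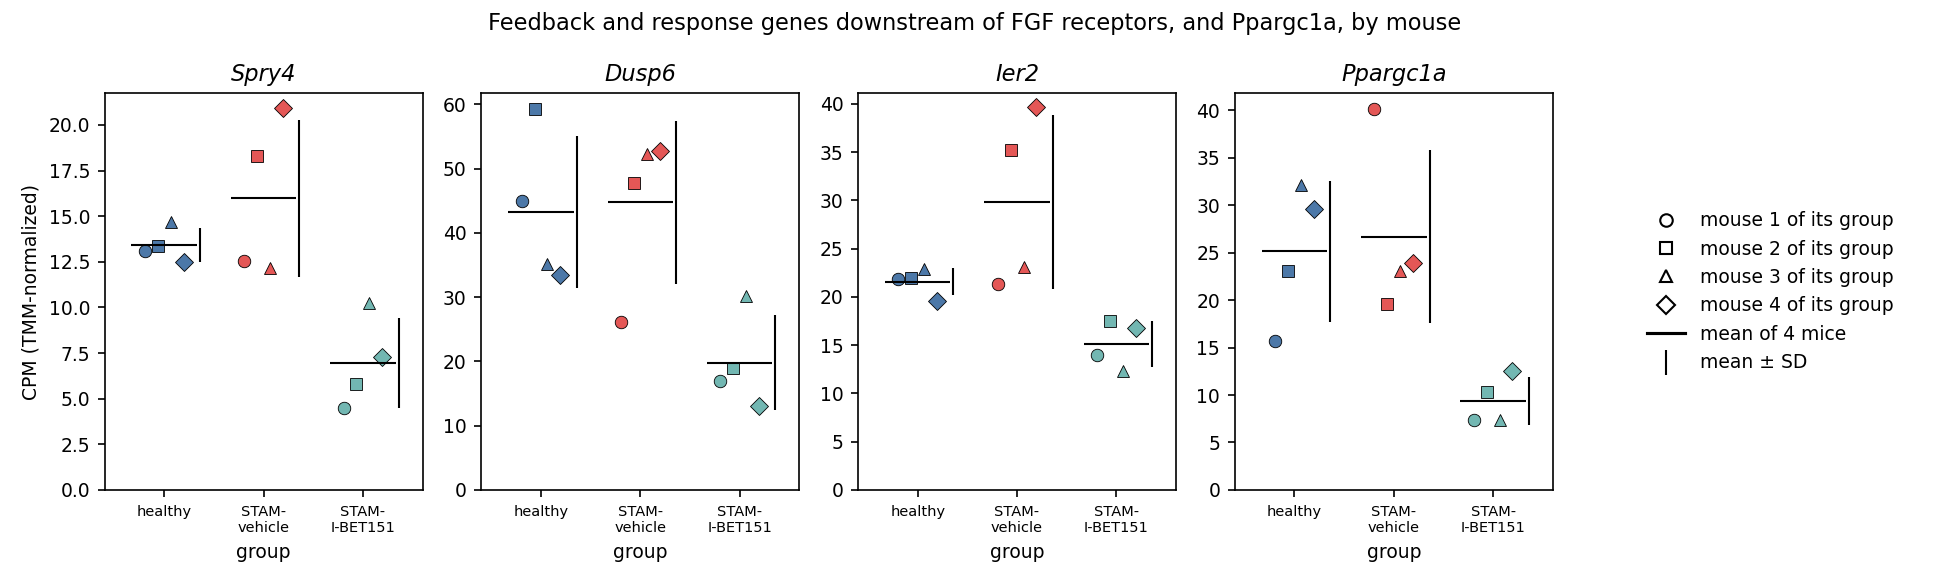
TMM-normalized CPM (y axes, linear from 0) of Spry4, Dusp6, Ier2 and Ppargc1a in every mouse, by group, with means as horizontal lines and mean ± SD as vertical lines. All STAM-I-BET151 mice lie below all STAM-vehicle mice for Spry4, Ier2 and Ppargc1a, while for Dusp6 STAM-I-BET151 mouse 3 (30.2 CPM) lies above STAM-vehicle mouse 1 (26.1 CPM).

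Genes of the integrated stress response, through which ATF4 raises Fgf21, were among those higher in STAM liver. Of 16 genes of the integrated stress response, 5 were higher and 0 lower in STAM-vehicle against healthy and 9 were higher and 0 lower in STAM-I-BET151 against healthy. The called shares of all genes were 7.01% and 14.9%. Leaving out STAM-I-BET151 mouse 3 made both counts 9, beside 22.3% and 20.2% of all genes. The medians were 0.80 and 1.07 on the log2 scale, beside 0.01 and 0.06 over all genes. Atf4, the transcription factor of the response, measured 84.7 to 93.02 CPM in healthy, 112 to 126 CPM in STAM-vehicle and 108 to 143 CPM in STAM-I-BET151 livers. It lay above the healthy range in all 8 STAM mice, missed the threshold in STAM-vehicle (0.43 ± 0.12, adjusted p = 0.0505, and 0.00373 without STAM-I-BET151 mouse 3) and passed in STAM-I-BET151 (0.45 ± 0.12, adjusted p = 0.0274). Psat1, a serine synthesis enzyme, rose by 3.24 ± 0.49 in STAM-vehicle against healthy, the stress factors Atf3 by 2.75 ± 0.36 and Nupr1 by 2.37 ± 0.37, and the asparagine synthetase gene Asns by 1.74 ± 0.32 (adjusted p = 0.00204, 0.000886, 0.00263 and 0.00572). Chac1, a glutathione-degrading enzyme, rose by 2.74 ± 0.58 in STAM-I-BET151 against healthy (adjusted p = 0.00873). Ddit3 (CHOP) passed in neither. None of the 16 passed between the STAM groups, where 1 had an unadjusted p under 0.05, beside 8.6% of all genes.

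Mouse by mouse, Fgf21 and several stress genes were highest in the same STAM-vehicle liver. STAM-vehicle mouse 3, with the highest Fgf21 of the study, had the highest STAM-vehicle values of Psat1 (8.12 CPM against 1.73 to 2.86 in the other 3), Nupr1 (9.17 against 2.17 to 5.24), Atf3 (11.1 against 4.72 to 6.54) and Ddit3 (21.9 against 13.4 to 15.5), whereas Asns and Atf4 were highest in mouse 4 (13.9 and 126 CPM). STAM-I-BET151 mouse 4, with the lowest STAM value of Fgf21 (7.19 CPM), had the highest Chac1 (19.4 CPM) and Asns (18.4 CPM) of all 12. After the mean of its group was taken from each mouse, the median Pearson r of Fgf21 with the 16 genes was 0.37 over 12 mice, beside 0.04 for all genes tested, and 0.47 beside 0.02 over the 11 mice without STAM-I-BET151 mouse 3. With the 16 PPARα genes it was 0.07 and 0.43, so that value rested on the choice of mice. The 6 hepatocyte markers gave a median r further from 0, at -0.60 and -0.49. The 6 ChREBP genes gave 0.31 and 0.0076, the 4 nuclear RNA markers 0.32 and 0.0071, and the 9 feedback inhibitors 0.041 and 0.011. These correlations are descriptions over mice that share groups, lanes and library composition.

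**Figure D5:**
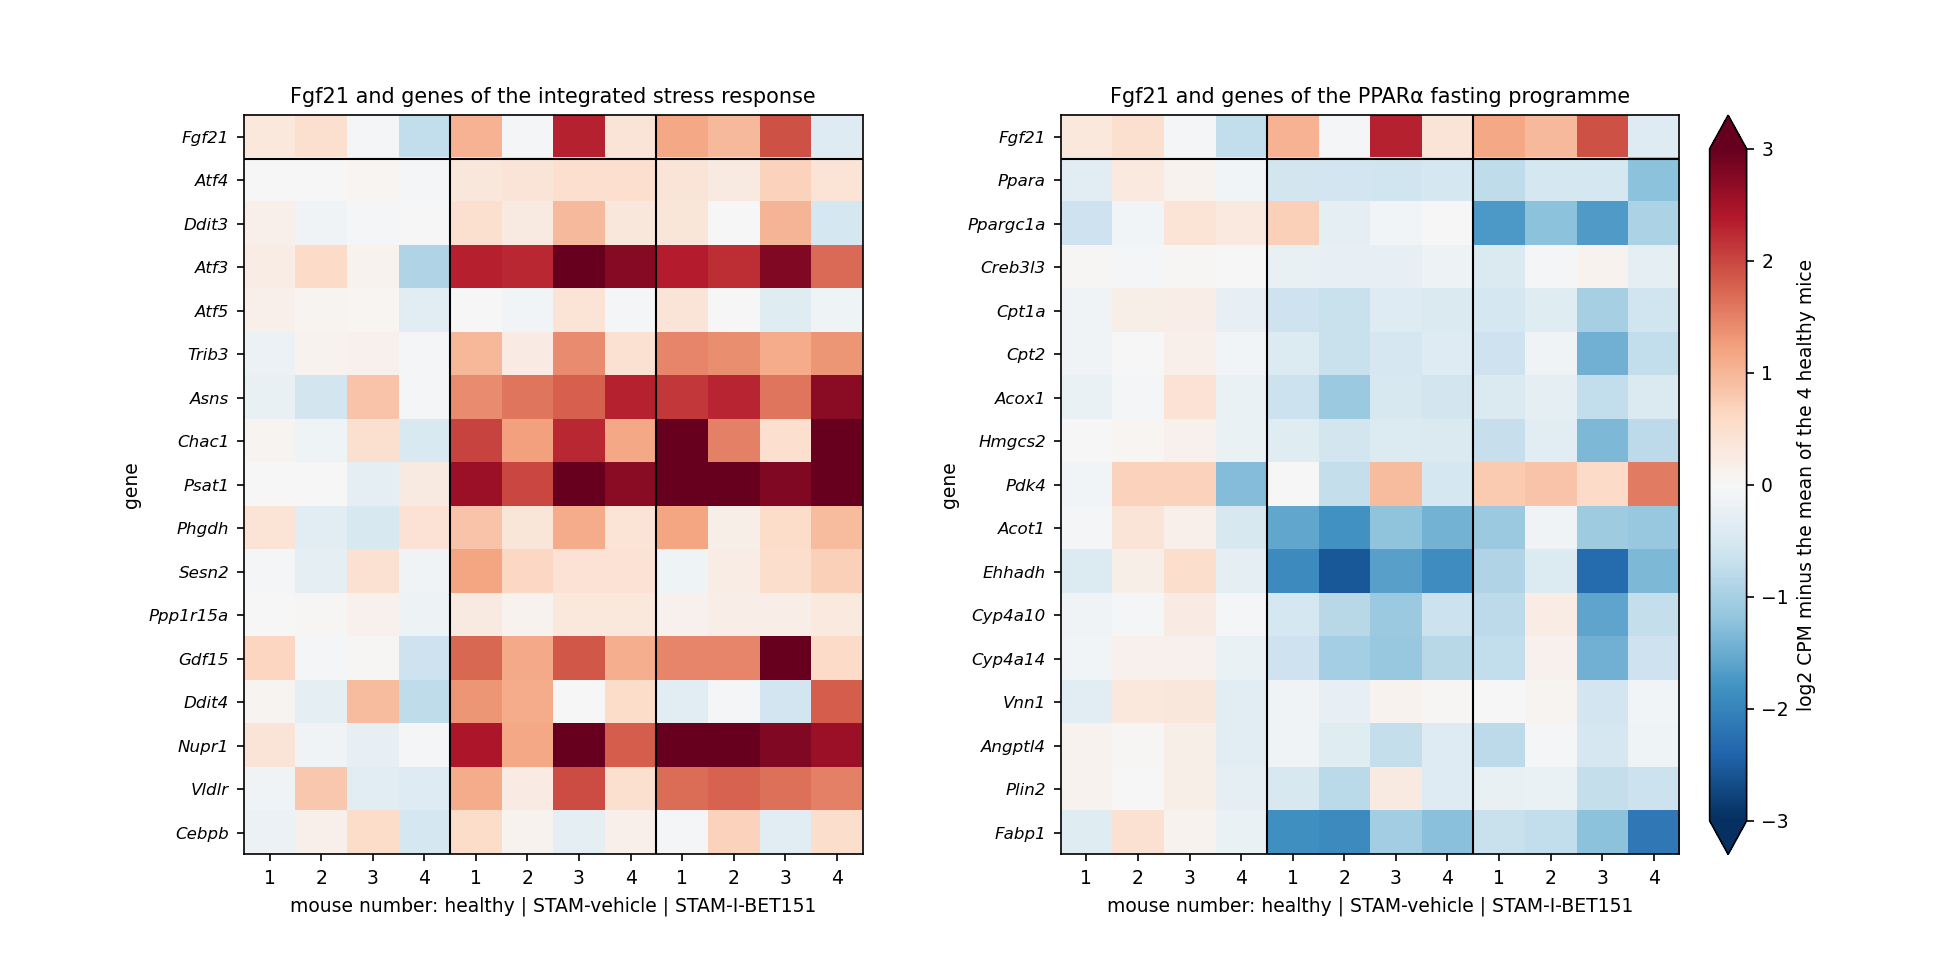
Log2 CPM minus the mean of the 4 healthy mice (colour, limited to ±3) for Fgf21 (top row) and the 16 integrated stress genes (left) or 16 PPARα genes (right), one column per mouse. In STAM columns Psat1, Nupr1 and Atf3 are red and Ehhadh, Acot1 and Fabp1 blue, while Fgf21 is darkest in STAM-vehicle mouse 3 and STAM-I-BET151 mouse 3.

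Several genes of the PPARα fasting programme fell in STAM liver. Of 16, 0 were higher and 3 lower in STAM-vehicle against healthy, and 0 were higher and 10 lower without STAM-I-BET151 mouse 3. The called share of all genes went from 7.01% to 22.3% between these 2 fits. On the log2 scale Ehhadh, of peroxisomal β-oxidation, fell by 1.996 ± 0.37 and the thioesterase Acot1 by 1.52 ± 0.26 (adjusted p = 0.00667 and 0.00388). The fatty acid carrier Fabp1 fell from 1610 to 2876 CPM in healthy to 550 to 1004 CPM in STAM-vehicle livers (adjusted p = 0.0162). In STAM-I-BET151 against healthy 5 were lower and 0 higher, beside 14.9% of all genes. Among the 5 was Ppara itself, the receptor that fasting uses to raise Fgf21. Ppara measured 128 to 194 CPM in healthy, 105 to 110 CPM in STAM-vehicle and 67.2 to 110 CPM in STAM-I-BET151 livers, without overlap with healthy. Its log2 differences from healthy were -0.58 ± 0.17 in STAM-vehicle (adjusted p = 0.0616, and 0.0144 without STAM-I-BET151 mouse 3) and -0.76 ± 0.17 in STAM-I-BET151 (adjusted p = 0.0125). Between the STAM groups 1 of 16 was lower, beside 0.339% of all genes. It was the coactivator gene Ppargc1a, at 40.1, 19.6, 23.1 and 23.96 CPM in STAM-vehicle mice and 7.33, 10.3, 7.39 and 12.5 CPM in STAM-I-BET151 mice. The groups did not overlap, and Ppargc1a fell by 1.51 ± 0.27 (adjusted p = 0.0536). When mouse 3 was left out, 1 was lower (Ppargc1a) and 1 higher in STAM-I-BET151, namely Ehhadh, by 1.12 ± 0.28 (adjusted p = 0.0855). The share of all genes was then 2.3%. Of 6 genes of the ChREBP glucose response, 0 passed in any comparison with all 12 mice, and at most 1 had an unadjusted p under 0.05 in each comparison. The shares of all genes at that cut ran from 8.6% between the STAM groups to 32.4% in STAM-I-BET151 against healthy. Mlxipl, which encodes ChREBP, stood at 1258 CPM in STAM-I-BET151 mouse 3 and at 237 to 461 CPM in the other 11 livers. Without that mouse 1 of the 6 was higher in STAM-vehicle and 1 lower in STAM-I-BET151 against healthy, beside 22.3% and 20.2% of all genes.

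Of 7 genes of bile acid synthesis and transport that FGFR4 and β-klotho help set, 1 was higher and 1 lower in STAM-vehicle against healthy. The called share of all genes there was 7.01%. Cyp7a1, the rate-limiting enzyme, measured 183, 155, 111 and 156 CPM in healthy mice and 234, 351, 168 and 381 CPM in STAM-vehicle mice, with STAM-vehicle mouse 3 in the healthy range, and rose by 0.91 ± 0.25 (adjusted p = 0.0470). Nr0b2 (SHP), a repressor of Cyp7a1, fell by 1.23 ± 0.32 in STAM-vehicle (adjusted p = 0.0344) and by 1.87 ± 0.32 in STAM-I-BET151 against healthy (adjusted p = 0.00297). In the latter comparison Cyp8b1, which sets the share of cholic acid, and Nr5a2 (LRH-1) were also lower, by 1.19 ± 0.35 and 0.65 ± 0.16 (adjusted p = 0.0350 and 0.0172), and Cyp7a1 did not pass (0.63 ± 0.25, adjusted p = 0.102). With STAM-I-BET151 mouse 3 left out, 1 of the 7 was higher and 3 were lower in STAM-vehicle against healthy, Cyp8b1 and Nr5a2 joining Nr0b2 at -1.07 ± 0.29 and -0.48 ± 0.10 (adjusted p = 0.0204 and 0.00513). The share of all genes was then 22.3%. Of these 7, 0 passed between the STAM groups, and 0 had an unadjusted p under 0.05, beside 0.339% and 8.6% of all genes.

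The tested genes whose log2 CPM followed each member most closely over the 12 mice were, by Pearson r, Airn (0.93) for Fgf21, Ccnf (0.96) for Fgf1, Dlg2 (0.91) for Fgfr1, Fam72a (0.92) for Fgfr2, Vps33b (0.97) for Fgfr3, Cwf19l1 (0.94) for Fgfr4 and Pdlim5 (0.98) for Klb. In the 11 mice other than STAM-I-BET151 mouse 3 these values were 0.93, 0.97, 0.94, 0.96, 0.89, 0.96 and 0.96. The next 2 in order were Gm9833 and Gm11843 for Fgf21, Trp53inp2 and Slco1a1 for Fgf1, 1810010H24Rik and Slc35b1 for Fgfr1, Gm43573 and Zfp472 for Fgfr2, Gm37422 and Npff for Fgfr3, Adamts13 and Tk1 for Fgfr4, and Sdhaf3 and Atg3 for Klb. They are the highest of 16822 values each, over mice that differ in group and lane, and are given as a description.

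Some markers of other liver cells differed in STAM liver, beside 7.01% of all genes called in STAM-vehicle against healthy. Of 4 macrophage markers, 3 were higher in STAM-vehicle against healthy (Cd68, Adgre1 and Clec4f), and the 4 summed ran from 123 to 180 CPM in healthy, 204 to 345 CPM in STAM-vehicle and 182 to 311 CPM in STAM-I-BET151 livers. Of 7 stellate cell and fibroblast markers, 1 was higher in STAM-vehicle (Col1a1). Of 4 lymphocyte markers, Cd8a stood at 0.0872 to 0.255 CPM in healthy and 0.503 to 1.34 CPM in STAM-vehicle livers. Cd8a entered the test mainly through its STAM counts, so its call is not counted. In STAM-I-BET151 against healthy 3 stellate markers were higher and 1 lower, and 0 lymphocyte markers passed, beside 14.9% of all genes. Reln, a stellate marker, ran from 49.1 to 58.7 CPM in healthy, 24.6 to 49.4 in STAM-vehicle and 30.5 to 37.9 in STAM-I-BET151 livers. The summed stellate markers overlapped, at 265 to 306 CPM in healthy and 220 to 357 in STAM-vehicle livers. None of 6 hepatocyte, 6 endothelial, 5 cholangiocyte and 4 nuclear RNA markers passed in STAM-vehicle against healthy. There 2, 0, 2 and 0 of them had an unadjusted p under 0.05, beside 22.1% of all genes. With that fit repeated without STAM-I-BET151 mouse 3, 3 hepatocyte markers were lower, and the other 3 lists had 1 marker higher each. The called share of all genes was then 22.3%. The nuclear RNA markers summed to 4801 CPM in STAM-I-BET151 mouse 3 and to 824 to 2121 CPM in the healthy and STAM-vehicle livers. Pancreas and fat also make FGF21. The 8 acinar markers summed to at most 1.96 CPM and the 4 adipocyte markers to at most 0.265 CPM in any liver, and Lep had no count. One acinar gene, Cela2a, measured 0.215 to 1.84 CPM in STAM-I-BET151 and 0.132 to 0.234 CPM in healthy livers, with overlapping ranges. Cela2a entered the test mainly through its STAM counts, so its call is not counted. The part of cell composition in the values of the 7 genes was not tested.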

How the data were processed

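Liver RNA of 12 mice was analysed, grouped by the sample labels. The authors aligned reads to mm10 with STAR 2.5.1b and deposited 1 table of raw, unscaled gene counts a mouse. The paper names htseq-count and the file names featureCounts, and the annotation release and strand setting are not given in the sources used here. Totals were 34711229 to 53365596 counts. No pair of mice of a group was alike within sampling noise (chi-square per degree of freedom 27.9 to 567). The labels do not state separate litters or cages, so p-values measure the spread between these mice.

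Genes were matched to GENCODE M21 (GRCm38). In R 4.3.3, edgeR 4.0.16 fitted the 3 groups together (TMM, filterByExpr with minimum count 10, robust quasi-likelihood test), with Benjamini-Hochberg adjustment over 16823 genes. Thresholds were 0.05 against healthy and 0.1 between the STAM groups. The SE is the log2 fold change divided by the square root of F. DESeq2 1.42.0 and limma 3.58.1 were alternatives. Levels per kilobase use the union of exons, and receptor shares were compared by exact permutation of the mice. Figures used Matplotlib 3.10.9. Scripts were tested on simulated counts.

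The 7 genes, the 19 other gene lists and the tests were chosen with earlier results of these data known. Genes named are the 7, 13 index genes of the pathway, in each list at most 4 called genes with the largest change per comparison, genes sharing exons with a member, and the 3 genes most like each member.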

Additional observations from a re-analysis of the deposited data

Results flagged for a closer look

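Each of the 7 genes and the Fgfr4 share were examined in each group for a mouse far from the other 3, in 24 sets of 4 values, and chance alone marks about 1 in 20 such sets. There were 2. Healthy mouse 3 had an Fgfr3 level of 28.3 CPM against 47.9 to 51.4 CPM in the other healthy mice, its gap taking 0.881 of the log2 range. STAM-I-BET151 mouse 3 had an Fgfr4 share of 40.7% against 46.2 to 47.2% in the other STAM-I-BET151 mice, its gap taking 0.853 of the range. Both exceed the critical value of Dixon's test for 4 values. The causes were not tested.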

How the results depend on the processing

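Fgf1 was lower in STAM than in healthy liver in every fit, but did not pass in every fit. With all genes as background, calls for STAM-vehicle against healthy numbered 1179 and became 2030 at an adjusted p of 0.1, 1910 with DESeq2, 5639 with limma-voom and sample weights, 3897 with only the 2 groups, 705 with the replicate block, 37 with lane as a covariate and 4369 with DESeq2 without STAM-I-BET151 mouse 3 (chosen after seeing the data). Leaving out 1 mouse gave 532 (without STAM-vehicle mouse 3) to 3783 (without STAM-I-BET151 mouse 3). The members called went from 1 to 3 with limma-voom, with only the 2 groups and with DESeq2 without mouse 3, and to 0 without the count filter, with the block, with lane and in 7 of 12 fits that left out a mouse, ranging from 0 to 1. The fits that lost Fgf1 were those without healthy mouse 2, 3 or 4 or any STAM-vehicle mouse, with adjusted p up to 0.115.

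STAM-I-BET151 against STAM-vehicle gave 57 calls over all genes, 21 at 0.05, 268 with DESeq2, 1163 with limma-voom, 6 with library totals alone, 8 with only the 2 groups, 3 with the block, 0 with lane, 1287 with DESeq2 without mouse 3 and 12 (without STAM-I-BET151 mouse 1) to 390 (without mouse 3) with a mouse left out, and 0 members in every fit. The calls of Spry4, Ier2 and Ppargc1a between the STAM groups were thus lost at 0.05 and with lane as a covariate. STAM-I-BET151 against healthy gave 2512, then 4120 at 0.1, 4841 with limma-voom, 1230 with only the 2 groups, 1557 with the block, 85 with lane, 4092 with DESeq2 without mouse 3 and 1247 to 3718 with a mouse left out. Its members called went from 1 to 2 at 0.1 and with the block (Klb joining, adjusted p = 0.0330 with the block) and with DESeq2 without mouse 3 (Fgfr4 joining), to 3 with limma-voom and to 0 with lane, and were 1 or 2 with a mouse left out (Klb joined without STAM-I-BET151 mouse 2, Fgfr4 without mouse 3).

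Library totals alone shifted the median log2 difference of all genes to 0.28, 0.13 and 0.46 in the 3 comparisons, and the calls against healthy split 1225 higher and 60 lower in STAM-vehicle (950 and 229 with TMM) and 3157 and 246 in STAM-I-BET151 (1641 and 871). Fgf1 was then -0.34 and -0.29 and did not pass, and Fgfr1 passed in both instead (0.81 and 0.82). Under that scaling the sign turned for Fgfr2 in all 3 comparisons (0.21, 0.10 and 0.32), for Fgf21, Fgf1, Fgfr1 and Fgfr4 between the STAM groups (0.14, 0.047, 0.011 and 0.10) and for Fgfr4 in STAM-I-BET151 against healthy (0.051).

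No called member turned sign. Of differences that had not passed in that fit, some turned with lane as a covariate. These were Fgfr3 and Klb in STAM-vehicle against healthy (-0.57 and 0.065), Fgfr4 between the STAM groups (0.030) and Fgfr3 in STAM-I-BET151 against healthy (-0.15). That Klb difference was called with only the 2 groups and with limma-voom. Fgfr4 in STAM-I-BET151 against healthy, called by limma-voom, turned with library totals alone (0.051). Fgfr3 turned with limma-voom (-0.10 between the STAM groups and -0.023 in STAM-I-BET151 against healthy) and with DESeq2 without mouse 3 (-0.14 and -0.093), as did Klb between the STAM groups (0.042). With a mouse left out, differences in STAM-vehicle against healthy ran from -0.12 to 0.012 for Fgfr2 and -0.10 to 0.14 for Fgfr3. Between the STAM groups they ran from -0.48 to 0.58 for Fgf21, -0.18 to 0.0021 for Fgf1, -0.24 to 0.053 for Fgfr1, -0.20 to 0.11 for Fgfr2, -0.15 to 0.56 for Fgfr3, -0.28 to 0.0064 for Fgfr4 and -0.37 to 0.036 for Klb. In STAM-I-BET151 against healthy they ran from -0.26 to 0.042 for Fgfr2 and -0.10 to 0.63 for Fgfr3. The causes were not tested.

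The Fgfr4 share differed by -9.18 to -6.44 percentage points in STAM-vehicle against healthy with a mouse left out (exact permutation p = 0.0571 without healthy mouse 3), by -6.01 to -2.87 between the STAM groups (p = 0.0286 without STAM-vehicle mouse 3, exact) and by -13.3 to -11.0 in STAM-I-BET151 against healthy. With the replicate block the differences stayed at -8.11 and -12.4 and the exact p was 0.125, the smallest that 4 pairs can give. Replicate numbers are shared by the groups, but deviations of same-numbered mice correlated at -0.351 to 0.0933 (mean -0.0927, against 0.0305 for other pairs), so the numbers were not taken to pair the mice. Fgf23, with 9 to 91 reads in a STAM library, is less precise than Fgf21, with 198 to 2425 reads.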
